A study of Mus musculus with 6 samples.

Results

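Genes associated with regulatory T (Treg) cells, 8 in all, were followed in T helper 2 (Th2) cultures with and without the transcription factor Eos, and none of the 8 passed the test between genotypes across all genes. Capg and Nrp1 were abundant and almost level across all 6 libraries, whereas Foxp3 and Itgae were near the bottom of the measured genes. The 2 members with the largest shift relative to their error were the paired ectoenzymes Entpd1, at 0.731 times its wild-type (WT) level in Ikzf4-/- cells, and Nt5e, at 1.63 times its WT level. The members were chosen by symbol, as marker and effector genes of Treg cells. All 8 had a row among the 14868 genes of the deposited table.

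Treg cells are the CD4+ T cells that restrain immune responses, and the forkhead factor Foxp3 sets their programme. Eos, the product of Ikzf4 and an Ikaros-family zinc finger protein, is known as a partner of Foxp3 that helps to silence genes in Treg cells, together with the corepressor Ctbp1. Treg cells also carry surface molecules that activate transforming growth factor beta (TGF-beta) and ectoenzymes that turn extracellular ATP into adenosine, and several of these molecules are found on activated conventional T cells too.

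The data came from naïve mouse CD4+ T cells on a C57BL/6J background, either WT or Ikzf4-/-, with 3 RNA-seq libraries per genotype. Both genotypes received the same Th2 culture for 3 days (72 h): plate-bound anti-CD3 at 5 µg/mL and anti-CD28 at 2 µg/mL, interleukin-4 at 10 ng/mL, and an antibody against interferon gamma at 10 µg/mL. The labels do not say how the allele was made, how naïve cells were purified, or whether the libraries came from separate animals, so p-values measure only the spread between these libraries, which may be technical. Values are normalized read counts, that is, reads divided by 1 size factor per library.

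The libraries held an implied 34701390 to 40604346 reads. Ikzf4 measured 756, 499.6 and 483 in WT cells and 25.2, 10.5 and 38.2 in the Ikzf4-/- libraries, so each library matched its genotype label (log2 fold change -4.64, limma adjusted p = 0.000389). WT replicate 1 stood apart on the first principal component, at -41.3 against -12.5 and -5.26 for the other WT libraries and 11.1 to 30.9 for the Ikzf4-/- libraries. All 11 CD4 T cell markers were present, with summed values of 140846 to 148048 per library. Of the Th2 markers, 7 of 8 had a row, and Il1rl1 was low among them, at 8.73 to 39.2. Markers of other cells were scarce: 5 of 8 B cell genes had no row, and the B cell sum was 61.7 to 99.5. Of the myeloid and dendritic cell markers, 8 of 13 had no row, and the sum of 2825 to 3681 was mostly Cst3, which many cell types express. The sum of CD8 T and natural killer cell markers ranged most, from 1378 to 3115, highest in WT replicates 2 and 3 and Ikzf4-/- replicate 3.

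In the test across all genes, 263 of 14864 genes were called at a limma adjusted p under 0.05, which is 1.77% of those tested, 178 lower (1.2%) and 85 higher (0.572%) in Ikzf4-/- cells, so that 32.3% of the calls were higher. With each library scaled to the same total, 154 were lower and 115 higher (42.8% higher). None of the 8 members was among the 263. At an unadjusted limma p under 0.05 there were 2 members, Entpd1 and Nt5e, against 18.1% of all genes. The authors' deposited table, which gave an adjusted p under 0.05 to 6.34% of the genes for which it gave one, had 1 member under that threshold, Entpd1. Entpd1 was also the only member whose WT and Ikzf4-/- values did not overlap, against 23.1% of all genes tested without overlap and 12.2% without overlap and lower. The fold change was below 0 for 3 members and above 0 for 5, against 48.7% of all genes below 0, with a median log2 fold change of 0.06 against 0.00 over all genes tested. The median absolute log2 fold change was 0.34 for the members and 0.11 for all genes, which were not matched to the members for level or spread. The SE of the log2 fold change ranged from 0.05 for Capg to 0.36 for Foxp3, and 7 members overlapped between genotypes. In bulk RNA, fewer cells of a type and less RNA per cell cannot be told apart.

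**Figure D1:**
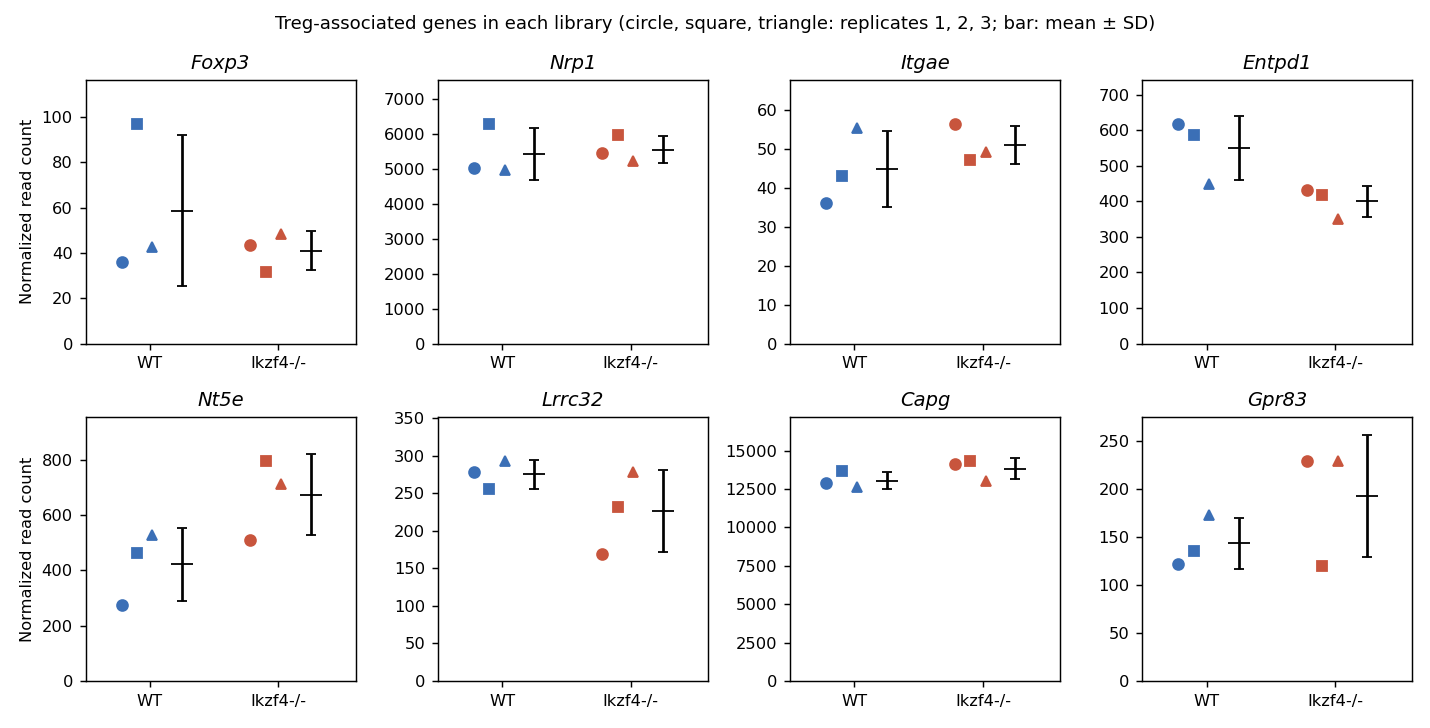
Normalized read count (linear axes from 0) of the 8 genes in the 3 WT (blue) and 3 Ikzf4-/- (red) libraries, with circles, squares and triangles for replicates 1, 2 and 3 and bars for mean ± SD. Entpd1 is the only panel in which all 3 Ikzf4-/- values lie below all 3 WT values, and Foxp3 in WT replicate 2, at 97.0, lies apart from the other 5 libraries.

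Levels can be compared between genes only per exon length, so each normalized read count was divided by the length of the gene's merged exons in kb. On this scale Capg was highest, at 5163 ± 212 in WT and 5469 ± 274 in Ikzf4-/- libraries (SD, n = 3 each), above 97.8% and 98.1% of the genes tested. Nrp1 followed at 555 ± 75.9 and 567 ± 39.7 per kb (SD, n = 3 each). Next in WT cells came Entpd1 at 98.7 ± 16.2, Lrrc32 at 58.7 ± 4.07, Nt5e at 49.1 ± 15.3 and Gpr83 at 28.1 ± 5.21 per kb (SD, n = 3). Foxp3, at 12.8 ± 7.30 per kb, and Itgae, at 9.80 ± 2.11 per kb (SD, n = 3 each), closed the order. The libraries of Lrrc32 overlapped those of Nt5e, those of Nt5e overlapped those of Gpr83, and those of Foxp3 overlapped those of Itgae, so these neighbours are not ordered beyond their spread. In Ikzf4-/- cells Nt5e, at 78.3 ± 17.1 per kb, stood above Entpd1, at 71.7 ± 7.63 per kb (SD, n = 3 each), with overlapping libraries. Foxp3, at 8.96 ± 1.89 per kb, was last there, also with libraries that overlapped those of Itgae, at 11.1 ± 1.07 per kb (SD, n = 3 each). For scale, the Th2 factor Gata3 was at 2135 per kb in WT and 1802 per kb in Ikzf4-/- cells.

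**Figure D2:**
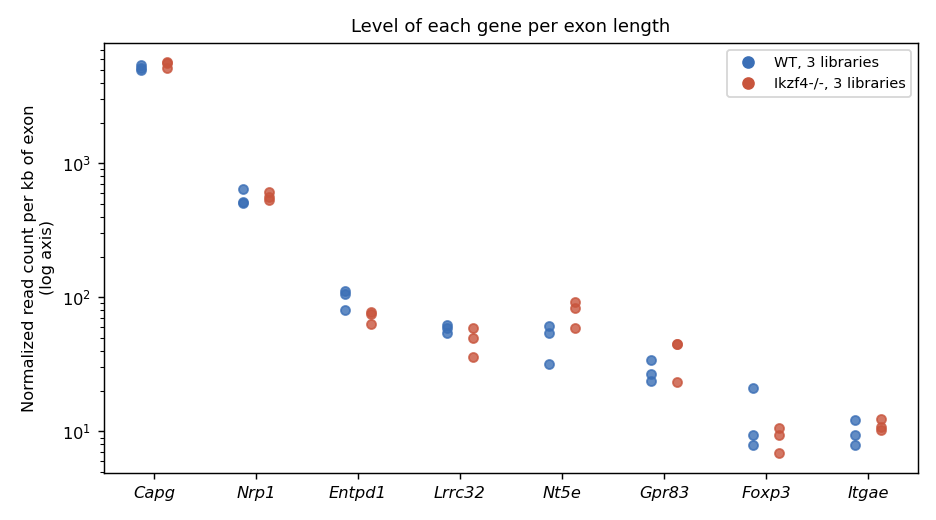
Normalized read count per kb of merged exon (log axis) for each gene, with 1 point per library, WT in blue and Ikzf4-/- in red, ordered by the WT mean. Capg, with means of 5163 and 5469 per kb, lies above the other members in all 6 libraries, while Foxp3 and Itgae lie lowest.

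Promoter sequences are shown for the downstream start of Foxp3, the lineage factor, and for both starts of Entpd1. Entpd1 was the one member without overlap between genotypes. Gpr83 is shown as well, since its upstream window holds an Ikaros-family core. Among those not shown are the Capg window, which also holds this core, and that of the upstream Foxp3 start, which held no match. The sequences come from RefSeq on GRCm38.p6, plus strand, and run up to the base before an annotated start. Capitals mark matches to the motifs searched on both strands, which do not overlap one another in these windows.
Foxp3, chrX:7580233-7580482: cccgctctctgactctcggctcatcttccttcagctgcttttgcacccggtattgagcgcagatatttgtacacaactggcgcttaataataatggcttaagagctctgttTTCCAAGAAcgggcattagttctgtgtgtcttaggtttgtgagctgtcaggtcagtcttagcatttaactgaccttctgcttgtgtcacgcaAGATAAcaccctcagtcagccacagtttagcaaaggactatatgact
Entpd1, upstream start, chr19:40612234-40612365: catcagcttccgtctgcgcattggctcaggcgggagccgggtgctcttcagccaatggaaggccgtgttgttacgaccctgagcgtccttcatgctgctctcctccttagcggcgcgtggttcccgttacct
Entpd1, downstream start, chr19:40659520-40659769: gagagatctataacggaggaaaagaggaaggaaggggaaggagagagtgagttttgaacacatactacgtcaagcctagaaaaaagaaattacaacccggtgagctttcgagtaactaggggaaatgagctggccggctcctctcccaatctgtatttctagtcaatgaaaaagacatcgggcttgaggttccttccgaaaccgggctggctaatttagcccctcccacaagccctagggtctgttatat
Gpr83, chr9:14859960-14860209: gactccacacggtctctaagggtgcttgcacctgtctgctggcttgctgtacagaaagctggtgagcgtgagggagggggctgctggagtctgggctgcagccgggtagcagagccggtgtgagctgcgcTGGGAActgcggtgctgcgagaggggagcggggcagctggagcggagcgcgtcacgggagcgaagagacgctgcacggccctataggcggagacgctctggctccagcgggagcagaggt

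RefSeq gave 8 windows for 6 of the 8 members, with none used for Itgae and Lrrc32. The 250 bases before each start were searched for the Ikaros-family core TGGGAA, found in 21.6% of all 32851 windows of that length, GATA as AGATAA (9.99%), STAT as TTCNNNGAA (7.02%), RUNX as TGTGGT (14.0%), forkhead as GTAAACA (3.17%), NR4A as AAAGGTCA (1.34%), Rel by its decamer (0.356%) and CREB as TGACGTCA (1.55%). The Foxp3 window shown held a STAT match starting 139 bases, and a GATA match starting 47 bases, before the start. TGGGAA occurred 120 bases before the Gpr83 start, at 138 and 58 bases before the Capg start, and 157 bases before the upstream Entpd1 start, in a stretch not shown because it lies in an exon of the divergent gene Tctn3. The other 4 windows, of Nrp1, Nt5e, the other Foxp3 start and the downstream Entpd1 start, held no match. Tctn3, which shares the upstream Entpd1 start region, had means of 330 ± 9.53 in WT and 332 ± 28.7 in Ikzf4-/- cells (SD, n = 3 each), and its adjusted p from limma was 0.985. A match describes letters in the window and shows no binding.

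Foxp3 (ENSMUSG00000039521, chromosome X, 7573644 to 7595245, plus strand of GRCm38) was measured at 36.2, 97.0 and 42.7 in WT replicates 1 to 3 and at 43.4, 31.4 and 48.2 in Ikzf4-/- replicates 1 to 3. WT replicate 2 was high, the other 5 libraries lay close together, and the genotypes overlapped. The mean was 58.6 ± 33.4 in WT and 41.0 ± 8.66 in Ikzf4-/- cells (SD, n = 3 each). The limma fit, on log2 values, put Foxp3 at 0.763 times the WT level, with a 95% interval from 0.439 to 1.32 (limma adjusted p = 0.622). These values rest on 30 to 108 reads per library. Counting error alone would place WT replicate 2 between 79.6 and 117 and WT replicate 3 between 31.0 and 57.3 (95% exact Poisson intervals). Without WT replicate 2 the log2 fold change was 0.04 in place of -0.39, so the direction rested on that library. Exons of Ppp1r3f, Gm36995, Flicr and Ccdc22 share bases with those of Foxp3, 18.6% of them in the case of Flicr, and whether reads were counted by strand is not given in the sources used here. Flicr was at 22.4, 19.8 and 24.3 in the WT libraries, with no high value in WT replicate 2. The CD8 T and natural killer cell marker sum was highest, at 3115, in WT replicate 2. It was 2760 in WT replicate 3 and 2385 in Ikzf4-/- replicate 3, where Foxp3 was at 42.7 and 48.2, and 1378 to 1479 in the rest. The part of this sum in the Foxp3 value was not tested.

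Among genes known to regulate or assist Foxp3, limma called 4 of 39, 1 lower and 3 higher, against 1.77% of all genes. The list's median log2 fold change was 0.03. It was written with earlier results of these data known, so its counts are description only. At an unadjusted limma p under 0.05 there were 18 of the 39, against 18.1% of all genes, and the authors' deposited table called 3 lower and 6 higher. Rel, a nuclear factor kappa B subunit needed for Foxp3 induction, rose from 3683 ± 636 to 5476 ± 245 (SD, n = 3 each; limma adjusted p = 0.0281). Nr4a2, an orphan nuclear receptor induced by T cell receptor signals, rose from 1333 ± 262 to 1938 ± 77.1 (SD, n = 3 each; limma adjusted p = 0.0474). Foxp1, a forkhead factor of quiescent T cells, rose from 4753 ± 502 to 6184 ± 346 (SD, n = 3 each; limma adjusted p = 0.0319). The one that fell was Runx3, an alpha subunit of core-binding factor in T cell lineages, from 1882 ± 479 to 1130.5 ± 131 (SD, n = 3 each; limma adjusted p = 0.0436). Over fits that left out 1 library the log2 fold change kept its sign, at 0.43 to 0.67 for Rel, 0.39 to 0.67 for Nr4a2, 0.33 to 0.47 for Foxp1 and -0.85 to -0.51 for Runx3. All 4 stayed called without WT replicate 1 and without WT replicate 3, and none without an Ikzf4-/- library. Without Ikzf4-/- replicate 1, 2 or 3, in that order, the adjusted p was 0.0784, 0.0641 and 0.111 for Rel, 0.0974, 0.0916 and 0.0878 for Foxp1, 0.123, 0.116 and 0.102 for Runx3, and 0.0981, 0.145 and 0.158 for Nr4a2, which was also not called without WT replicate 2 (0.0755). Ctbp1, the Eos corepressor, had means of 10987 ± 502 and 10246 ± 245 (SD, n = 3 each) and differed by -0.10 on the log2 scale (limma adjusted p = 0.293). Gata3, which binds the Foxp3 locus as well as the Th2 cytokine locus, differed by -0.24 on the log2 scale (limma adjusted p = 0.146). It was called without WT replicate 3 (adjusted p = 0.0491), with the replicate number as a block (0.0225) and in the authors' deposited table (0.0386).

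Lrrc32, the gene of GARP, holds latent TGF-beta on the surface of activated Treg cells (ENSMUSG00000090958, chromosome 7, 98489283 to 98502181, plus strand). Its values were 278, 255 and 293 in WT libraries, against 169, 232 and 278 in Ikzf4-/- libraries. Ikzf4-/- replicate 3 lay within the WT range and replicate 1 was lowest of all. The mean was 275 ± 19.1 in WT and 227 ± 54.6 in Ikzf4-/- cells (SD, n = 3 each). The limma fit, on log2 values, put Lrrc32 at 0.809 times the WT level, with a 95% interval from 0.623 to 1.05 (limma adjusted p = 0.377). Without Ikzf4-/- replicate 1 its log2 fold change was -0.11 in place of -0.31.

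Itgae encodes CD103, the integrin alpha chain that pairs with the beta 7 chain to bind E-cadherin and that TGF-beta induces (ENSMUSG00000005947, chromosome 11, 73090583 to 73147446, plus strand). Its values were 36.2, 43.1 and 55.3 in WT and 56.5, 47.1 and 49.2 in Ikzf4-/- libraries, from 34 to 57 reads each. The groups overlapped, at 1.15 times the WT level with a 95% interval from 0.785 to 1.67 (limma adjusted p = 0.735). Without WT replicate 1 its log2 fold change was 0.06 in place of 0.20. The partner chain Itgb7 had means of 1840.0 ± 484 in WT and 1427 ± 71.5 in Ikzf4-/- cells (SD, n = 3 each), a difference of -0.34 on the log2 scale with a limma adjusted p of 0.251. Without WT replicate 3 Itgb7 was called at -0.51 (0.0392), and without WT replicate 1 the difference was -0.14.

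Of 23 genes of latent TGF-beta and its signalling with a row, none was called by limma, 5 had an unadjusted p under 0.05 (18.1% of all genes did), and the authors' deposited table had 1 lower and 1 higher at an adjusted p under 0.05. Their median log2 fold change was -0.03. Tgfb1, the ligand that Lrrc32 holds, had means of 10923 ± 688 and 10291 ± 978 (SD, n = 3 each), a log2 difference of -0.09 (limma adjusted p = 0.553). The receptor genes Tgfbr1 and Tgfbr2 had log2 fold changes of 0.04 and 0.01 (limma adjusted p = 0.814 and 0.977), and that of Tgfbr2 fell below 0 without WT replicate 1 (-0.05), without WT replicate 3 (-0.02), without Ikzf4-/- replicate 3 (-0.04) and with array weights (-0.05).

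Nrp1, the co-receptor for semaphorins and vascular endothelial growth factor that marks thymus-derived Treg cells in mice, was the second most abundant member per exon length (ENSMUSG00000025810, chromosome 8, 128358604 to 128503363, plus strand). Its values were 5028, 6286 and 4975 in WT and 5457, 5967 and 5206 in Ikzf4-/- libraries, with the 3 Ikzf4-/- values inside the WT range. The ratio was 1.03, with a 95% interval from 0.899 to 1.17 (limma adjusted p = 0.872). Its sign was not fixed: the log2 fold change was 0.04 on all libraries and -0.01 without WT replicate 1, -0.02 without WT replicate 3, -0.02 without Ikzf4-/- replicate 2 and -0.02 with array weights. None of 14 ligands and co-receptors of Nrp1 with a row was called by limma, against 6 at an unadjusted p under 0.05, a threshold that 18.1% of all genes passed, and 1 in the authors' deposited table. The fold change was below 0 for 11 and above 0 for 3, with a median log2 fold change of -0.20. The gene called in that table was Sema4a, a ligand of Nrp1 on Treg cells, at 780 ± 27.5 in WT and 592 ± 76.4 in Ikzf4-/- cells (SD, n = 3 each), a log2 difference of -0.40 (limma adjusted p = 0.0686). Sema4a had an adjusted p of 0.0105 in the authors' deposited table, of 0.0371 with limma array weights and of 0.0291 with the replicate number as a block. Fits that left out 1 library called it in 0 of 6, with limma adjusted p-values of 0.0854 to 0.175.

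**Figure D3:**
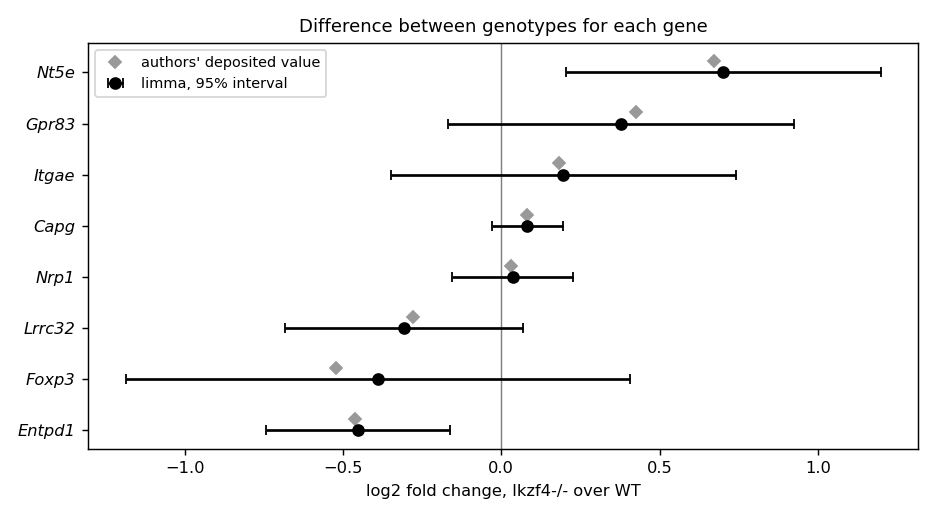
Log2 fold change (Ikzf4-/- over WT) of each gene, with black points and bars for the limma estimate and its 95% interval and grey diamonds for the value in the authors' deposited table. The intervals of Entpd1 and Nt5e do not reach 0 before adjustment over all genes, and those of the other 6 genes include 0.

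The ectoenzymes gave the largest differences relative to their error. Entpd1, or CD39, splits ATP and ADP to AMP at the cell surface, and Nt5e, or CD73, turns AMP into adenosine, which dampens T cells through its receptors. In Ikzf4-/- cells the mean RNA level of Entpd1 was lower and that of Nt5e higher, the latter with overlap between genotypes. Neither was called by limma, and enzyme protein was not measured. With the replicate number as a block both were called by limma, Entpd1 at an adjusted p of 0.0216 and Nt5e at 0.00703. Whether the numbers pair the libraries is not known.

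Entpd1 (ENSMUSG00000048120, chromosome 19, 40612366 to 40741602, plus strand) was at 618, 586 and 448 in WT replicates 1 to 3 and at 432, 417 and 352 in Ikzf4-/- replicates 1 to 3. All 3 Ikzf4-/- values lay below all 3 WT values, by a narrow margin to WT replicate 3. The mean was 551 ± 90.3 in WT and 400.0 ± 42.6 in Ikzf4-/- cells (SD, n = 3 each), a log2 fold change of -0.45 (SE 0.13) and a 95% interval of 0.597 to 0.894 times the WT level. Its unadjusted limma p was 0.00583 and its adjusted p 0.105, while the adjusted p in the authors' deposited table was 0.0211. Without WT replicate 3 it was called (limma adjusted p = 0.0261), and in the other 5 fits that left out 1 library it was not, with adjusted p-values up to 0.290. B cells and myeloid cells also express Entpd1. The B cell sum was 61.7 to 92.5 in WT and 75.4 to 99.5 in Ikzf4-/- libraries. The myeloid and dendritic cell sum, which was mostly Cst3, was 3517 to 3681 in WT and 2825 to 3331 in Ikzf4-/- libraries. Itgax was at 6.03 to 13.6, and Lyz2, Csf1r, Itgam and Adgre1 had no row. The part of B cells and myeloid cells in the Entpd1 difference was not tested.

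Nt5e (ENSMUSG00000032420, chromosome 9, 88327197 to 88372092, plus strand) measured 275, 464 and 528 in WT libraries, against 510.4, 796 and 714 in Ikzf4-/- libraries. WT replicate 1 was lowest, and WT replicate 3 lay just above Ikzf4-/- replicate 1. The mean was 422 ± 132 in WT and 673 ± 147 in Ikzf4-/- cells (SD, n = 3 each), a log2 fold change of 0.70 (SE 0.23) and a 95% interval of 1.15 to 2.29 times the WT level. Its unadjusted limma p was 0.0101 and its adjusted p 0.135, against an adjusted p of 0.262 in the authors' deposited table. WT replicate 1 carried much of the difference: without it the log2 fold change was 0.42 (limma adjusted p = 0.230).

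The ratio of Nt5e to Entpd1 within a library does not depend on its size factor. Per kb of exon it was 0.288, 0.513 and 0.764 for the WT libraries and 0.767, 1.24 and 1.32 for the Ikzf4-/- ones, by replicate number. The means were 0.522 ± 0.238 and 1.11 ± 0.298 (SD, n = 3 each). The lowest Ikzf4-/- ratio and the highest WT ratio almost met. This pair was chosen after its values were seen, so no test was made.

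Of 24 further genes of nucleotide and adenosine handling with a row, limma called 1, which was lower, against 1.77% of all genes. At an unadjusted limma p under 0.05 there were 8, against 18.1% of all genes. The authors' deposited table called 2 lower and 2 higher, against 6.34% of the genes for which it gave an adjusted p. The list's median log2 fold change was 0.01. The called gene was Adora2b, a low-affinity adenosine receptor, which fell by 0.44 on the log2 scale (limma adjusted p = 0.0480), from 609 ± 41.6 to 449 ± 38.3 (SD, n = 3 each). In the 6 fits that left out 1 library the log2 fold change stayed between -0.51 and -0.39, but none of them called it: the adjusted p was 0.0931, 0.0822 and 0.0619 for WT replicates 1 to 3 and 0.126, 0.147 and 0.0933 for Ikzf4-/- replicates 1 to 3, and with quantile scaling it was 0.0502. Adora2a, the main adenosine receptor of T cells, had means of 2216 ± 361 and 2507 ± 96.2 (SD, n = 3 each), a log2 difference of 0.19 (limma adjusted p = 0.352). Ada, which removes adenosine by deamination, was at 185, 181 and 207 in WT and 283, 276 and 267 in Ikzf4-/- libraries, without overlap. Its log2 fold change was 0.53 with a limma adjusted p of 0.0522, and it passed the threshold without WT replicate 3 (0.0406), with equal library totals (0.0448), with array weights (0.0286) and with the replicate number as a block (0.0379). In the authors' deposited table its adjusted p was 0.0151. Only 1 of the 6 fits that left out 1 library called Ada, with limma adjusted p-values up to 0.151.

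Capg, an actin filament capping protein of the gelsolin family that is enriched in Treg cells, was the most abundant member (ENSMUSG00000056737, chromosome 6, 72544391 to 72562983, plus strand). Its values were 12879.9, 13660.4 and 12635 in WT and 14127, 14326 and 13038 in Ikzf4-/- libraries. The highest library was 1.13 times the lowest, the smallest spread of the 8 members, and the genotypes overlapped. The ratio was 1.06, with a 95% interval from 0.980 to 1.14 (limma adjusted p = 0.435). Of 14 related actin cappers and severers with a row, limma called none, 2 had an unadjusted p under 0.05 (18.1% of all genes did), and the authors' deposited table called 1, higher. Their median log2 fold change was -0.03.

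Gpr83, a G protein-coupled receptor enriched in Treg cells (ENSMUSG00000031932, chromosome 9, 14860210 to 14870789, plus strand), was at 121, 136 and 173 in WT libraries and at 229, 119 and 229 in Ikzf4-/- libraries. Ikzf4-/- replicates 1 and 3 were high and replicate 2 was the lowest of all 6. The mean was 143 ± 26.5 in WT and 192 ± 63.3 in Ikzf4-/- cells (SD, n = 3 each). The limma fit, on log2 values, put Gpr83 at 1.30 times the WT level, with a 95% interval from 0.889 to 1.90 (limma adjusted p = 0.468). Without Ikzf4-/- replicate 2 the log2 fold change was 0.69 in place of 0.38, with a limma adjusted p of 0.146.

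**Figure D4:**
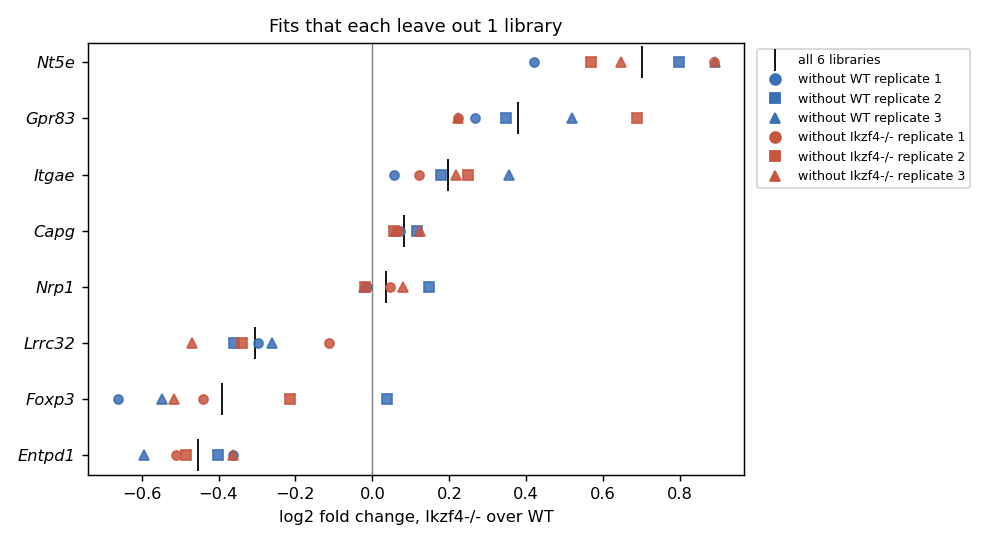
Log2 fold change (Ikzf4-/- over WT) of each gene on all 6 libraries (black bar) and in 6 fits that each leave out 1 WT (blue) or Ikzf4-/- (red) library. Foxp3 moves to 0.04 without WT replicate 2 and Nt5e to 0.42 without WT replicate 1, while Capg stays between 0.06 and 0.12.

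The rest of the Treg signature was examined in the same fit. Of 31 other signature genes with a row, limma called 6, all lower in Ikzf4-/- cells, against 1.2% of all genes called lower, and 25 were not called. The median log2 fold change was -0.15, and 22 were below 0. This list, like the other lists here, was written with earlier results of these data known, so its counts are description only. The authors' deposited table had 6 lower and 3 higher. Il10, the suppressive cytokine that Th2 cells also secrete, fell from 523 ± 198 to 179 ± 12.9 (SD, n = 3 each; limma adjusted p = 0.0157). Ly6a, the surface protein Sca-1, fell from 383 ± 110 to 171 ± 28.0 (SD, n = 3 each; limma adjusted p = 0.0313). Socs2, an inhibitor of cytokine signalling, fell from 2849.6 ± 659 to 1708 ± 213 (SD, n = 3 each; limma adjusted p = 0.0331), and Nfil3, a basic leucine zipper factor, from 4298 ± 959 to 2643 ± 196 (SD, n = 3 each; limma adjusted p = 0.0292). The other called genes were Lag3, an inhibitory receptor, at -0.60 on the log2 scale (limma adjusted p = 0.0355), and Tnfrsf18, or GITR, a costimulatory receptor, at -0.26 (0.0306). Several of these genes are also expressed by activated conventional T cells. The summed Th2 markers were 23957 to 28799 in WT and 18734 to 21307 in Ikzf4-/- libraries, without overlap. Of all single genes tested, 12.2% were without overlap and lower. Limma called 3 of the 7 markers with a row lower, against 1.2% of all genes. The part of the Th2 markers' difference in these results was not tested.

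Over fits that left out 1 library all 6 stayed below 0, with log2 fold changes of -1.71 to -1.19 for Il10, -1.39 to -0.96 for Ly6a, -0.83 to -0.54 for Socs2, -0.81 to -0.51 for Nfil3, -0.75 to -0.44 for Lag3 and -0.29 to -0.23 for Tnfrsf18. All 6 stayed called without WT replicate 1 and without WT replicate 3, but not in each of the other fits. With Ikzf4-/- replicate 1 left out, the limma adjusted p was 0.0532 for Il10, 0.0917 for Ly6a, 0.0650 for Socs2, 0.0858 for Nfil3, 0.0903 for Lag3 and 0.0903 for Tnfrsf18. Without Ikzf4-/- replicate 3 it was 0.0771, 0.115, 0.111, 0.114, 0.137 and 0.121 in that order. Without Ikzf4-/- replicate 2 Il10 was still called, and the other 5 had 0.0502, 0.106, 0.0531, 0.0839 and 0.0505. Without WT replicate 2 Il10 was again called, and the other 5 had 0.0901, 0.0615, 0.0615, 0.0830 and 0.0516.

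**Figure D5:**
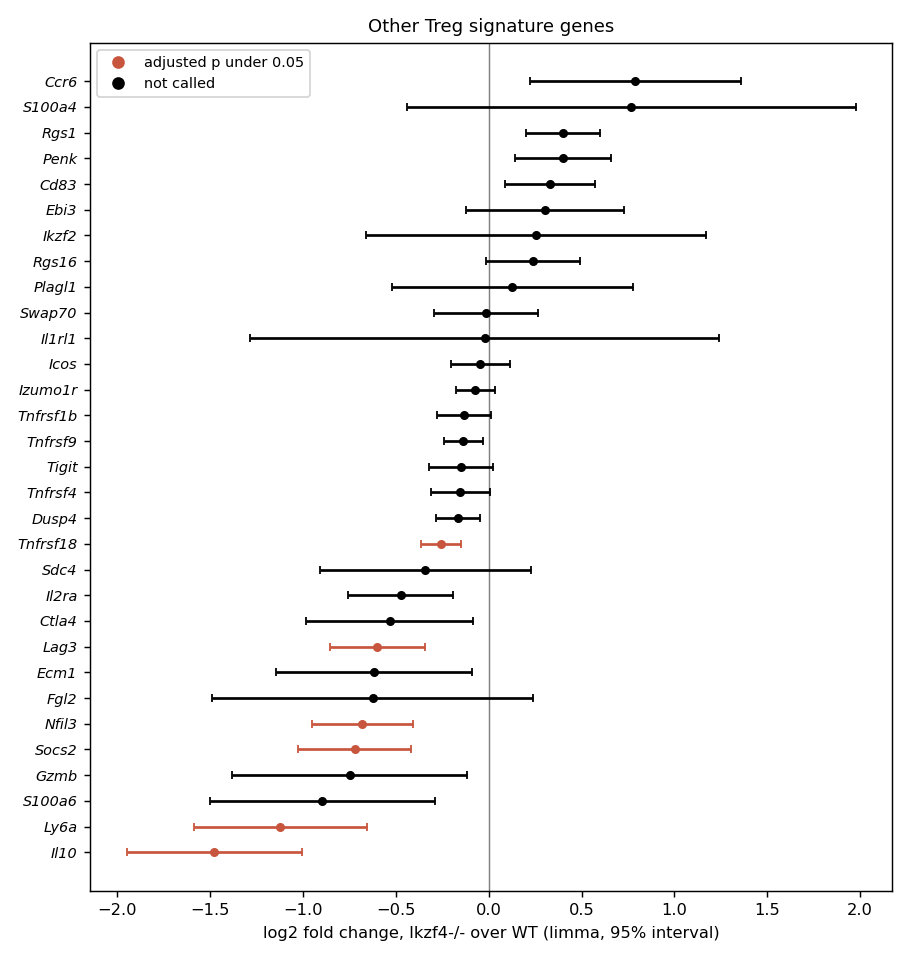
Log2 fold change (Ikzf4-/- over WT, limma) with 95% intervals for the 31 other Treg signature genes with a row, red where the adjusted p was under 0.05. All 6 called genes lie below 0, from -0.26 for Tnfrsf18 to -1.48 for Il10. The list was written with earlier results of these data known.

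For the 3 members that varied most over the 6 libraries, the genes with the nearest profile were sought among 11600 genes with a mean of at least 50. Likeness was the root mean square difference of log2 values centred on each gene's mean over the 6 libraries. Nearest to Foxp3 were Gm10800 (0.198), Ccl9 (0.209) and Bmf (0.239), of which each was also highest in WT replicate 2, at 202, 112 and 171. Nearest to Nt5e were Syna (0.0765), Ccr6 (0.127) and Pxdc1 (0.139). Ccr6, a chemokine receptor that is also on the Treg signature list, was at 90.5, 176 and 199.9 in WT and 216, 268 and 287 in Ikzf4-/- libraries, lowest in WT replicate 1 like Nt5e (log2 fold change 0.79, limma adjusted p = 0.140). Nearest to Gpr83 were Whrn (0.139), Trbj1-7 (0.161) and Gm45110 (0.164), and among these Whrn and Trbj1-7 were, like Gpr83, lowest in Ikzf4-/- replicate 2, at 106 and 77.5.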

How the data were processed

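Trimmomatic 0.36, STAR 2.5.2b and DESeq2, with GRCm38 (mm10), are named in the submitters' processing notes; the read counter, its use of strand and the annotation are not given in the sources used here. The deposited sample columns hold a never-negative signal, read here as gene read counts divided by 1 size factor per library, since 100% of values lay within 0.01 of whole multiples of 1 step per library. Genes with under 61 such reads over all libraries had no row. The authors' log2 fold changes, p-values and adjusted p-values came with the deposited table and are named as theirs where used.

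A count test was planned for raw counts only. It was left out because the columns are normalized. Implied reads are used only for depth and counting error. The fit used log2(value + 1) and the 14864 of 14868 genes whose mean reached 10. limma 3.58.1 (R 4.3.3) was fitted to all 6 libraries with genotype as its only term, a variance trend and empirical Bayes moderation. P-values are two-sided, Benjamini-Hochberg adjusted over all genes, with a threshold of 0.05. Fold changes and their 95% intervals (not adjusted) refer to log2(value + 1), so changes of low genes are understated. The fit was tested on simulated data. Exon lengths and positions came from GENCODE M21 (GRCm38).

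Members and lists were chosen with earlier results of these data known. Named genes were the members, Ikzf4, 8 direct partners and up to 4 lowest and 4 highest called genes of each list. Lag3, Tnfrsf18, Gata3, Ccr6, Tctn3 and genes overlapping a member were chosen after their values were seen. Alternatives were other scalings, filters, pseudocounts (0.1 and 10), array weights, a threshold of 0.01, the replicate number as a block, each library left out, and the authors' table.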

Additional observations from a re-analysis of the deposited data

How the results depend on the processing

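No member was called under quantile, upper quartile or equal-total scaling, without a filter, with a minimum of 10 in every library, with either other pseudocount or with array weights. A threshold of 0.01, set on the main fit, could not add a call. Of the values of members under alternatives, 127 kept direction and side of the threshold, 4 gained a call and 5 changed sign. The 127 include those at the threshold of 0.01, which could not change. The authors' deposited table called 1 member, and fits without 1 library called 0 to 1. For all genes, array weights called 482, a threshold of 0.01 called 16, and 815 had an adjusted p under 0.05 in the authors' deposited values, and fits without 1 library 20 to 523 (20 without Ikzf4-/- replicate 3, 48 without Ikzf4-/- replicate 1, 75 without WT replicate 2, 112 without Ikzf4-/- replicate 2, 523 without WT replicate 3). The log2 fold change changed sign for Foxp3 (-0.662 to 0.0371 over fits without 1 library, above 0 without WT replicate 2), for Nrp1 (-0.0226 to 0.146 over such fits, below 0 without WT replicate 1, WT replicate 3 or Ikzf4-/- replicate 2, and -0.0222 with array weights) and for Tgfbr2 (-0.0500 to 0.0872 over such fits, below 0 without WT replicate 1, WT replicate 3 or Ikzf4-/- replicate 3, and -0.0524 with array weights). The threshold lowers the count by construction. Fits without 1 library gave both fewer and more calls than the 263 of the main fit. For these and the other alternatives the cause was not tested. Of the other named genes' values, 301 kept direction and call, 55 lost the call, 14 gained it and 4 changed sign. Some of the lost calls came only from the stricter threshold on the same fit.

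With the replicate number as a block, 754 genes were called, and 2 members, Entpd1 (adjusted p = 0.0216) and Nt5e (0.00703). Deviations of same-numbered libraries correlated at 0.145, 0.0122 and 0.142. WT replicates 1 and 3 correlated best with the same number, and WT replicate 2 with Ikzf4-/- replicate 3 (0.0491). The labels give the numbers no meaning, so pairing by number was neither assumed nor excluded.

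Foxp3 and Itgae rest on few reads, 30 to 108 per library. For Foxp3 the WT libraries spread beyond counting error, so depth alone does not set the width of its interval.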
